A study of Mus musculus with 20 samples.

Results

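Leukocyte integrins are the adhesion receptors with which white blood cells bind vessel walls, matrix and other cells, and 10 of their genes were followed in colonic eosinophils and macrophages: Itgam, Itgax, Itgal, Itgb2, Itga4, Itgb1, Itgb7, Itgae, Itgav and Itga5. They were chosen by name out of 50600 gene entries in each of 2 deposited tables, 1 per cell type. Itgam has 2 entries in each table, so the 10 genes correspond to 11 entries. The second Itgam entry held 0 to 3.58 normalised reads in any library and is not used further.

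RNA was counted at the 3′ end of transcripts by CEL-Seq in 20 libraries of mouse cells sorted by flow cytometry from digested colons. Tumor eosinophils (7 libraries) and tumor macrophages (6 libraries) came from C57BL/6 wild-type mice that bore tumors after induction of what the labels call CAC. Naive eosinophils (2 libraries) and naive macrophages (5 libraries) came from naive C57BL/6 wild-type colons, labelled as control. The labels name no transgene or deletion. The labels give neither age, nor the inducing agents, nor the surface proteins used for sorting, and they do not say whether replicates came from separate animals. The p-values therefore measure the spread between these libraries, which may be technical. Proteins of several of these genes (CD11b from Itgam, CD11c from Itgax) are common sorting antigens, and what a gate contributed was not tested.

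An integrin is a pair of an α and a β chain, and the chains pair selectively. The β2 chain (Itgb2) joins αL (Itgal) to form LFA-1, αM (Itgam) to form Mac-1 and αX (Itgax) to form CD11c/CD18, which bind ICAMs, complement fragments and fibrinogen. The β7 chain (Itgb7) joins α4 (Itga4) to form the gut-homing receptor for MAdCAM-1, or αE (Itgae, CD103) to form a receptor for epithelial E-cadherin. The β1 chain (Itgb1) joins α4 as the receptor for VCAM-1, α5 (Itga5) as the fibronectin receptor and αV (Itgav), which also pairs with several other β chains. Eosinophils are known to carry α4 with β1 or β7 as well as the β2 integrins, and gut macrophages are known for CD11b and CD11c.

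The genes of the 3 β2 partners lie together on chromosome 7 (GRCm38, GENCODE M21), on the plus strand. Itgal spans 127296260 to 127335138, Itgam 128062640 to 128118491 and Itgax 128129547 to 128150657. Between Itgal and Itgam are 727501 bases, and between Itgam and Itgax only 11055. Itgb2 lies on chromosome 10 (77530252 to 77565708, plus strand). Itgb7 (102215995 to 102231944) and Itga5 (103344286 to 103366763) are on the minus strand of chromosome 15. Itga4 (79255426 to 79333123) and Itgav (83724397 to 83806916) share the plus strand of chromosome 2, Itgae (73090583 to 73147446) is on that of chromosome 11, and Itgb1 (128685654 to 128733200) on that of chromosome 8.

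RefSeq promoter windows (GRCm38.p6) were at hand for 7 of the 10 genes, all but Itgal, Itgb2 and Itgae. Those of the neighbours Itgam and Itgax are shown because they supplied most of the β2 partner reads, and that of Itgb7 because its transcript was lower in tumors in both cell types. Each line holds the 250 bases before the RefSeq start, 5′ to 3′ on the strand of the gene, with motif matches in capitals. The windows are chr7:128062390-128062639 (plus) for Itgam, chr7:128129300-128129549 (plus) for Itgax and chr15:102231936-102232185 (minus) for Itgb7.
Itgam: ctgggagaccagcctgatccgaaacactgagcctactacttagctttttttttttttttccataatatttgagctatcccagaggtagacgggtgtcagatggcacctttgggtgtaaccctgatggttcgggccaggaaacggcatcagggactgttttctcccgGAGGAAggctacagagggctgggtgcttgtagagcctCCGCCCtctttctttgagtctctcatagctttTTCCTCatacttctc
Itgax: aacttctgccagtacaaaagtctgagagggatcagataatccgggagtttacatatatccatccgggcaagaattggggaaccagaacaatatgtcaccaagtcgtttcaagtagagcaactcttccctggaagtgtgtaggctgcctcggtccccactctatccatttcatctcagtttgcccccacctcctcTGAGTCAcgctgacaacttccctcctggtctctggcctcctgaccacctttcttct
Itgb7: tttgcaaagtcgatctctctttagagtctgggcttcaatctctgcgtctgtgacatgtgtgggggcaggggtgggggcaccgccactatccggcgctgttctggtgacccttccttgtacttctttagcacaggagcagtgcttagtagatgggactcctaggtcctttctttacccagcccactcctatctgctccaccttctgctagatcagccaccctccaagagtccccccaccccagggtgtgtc
The letters searched on both strands were GAGGAA for PU.1, TGTGGT for RUNX, GGGCGG for Sp1, TGANTCA for AP-1 and TATAAA for TATA, and no 2 of the matches overlapped. The Itgam window held the PU.1 letters on the gene's strand 84 bases before the start and on the opposite strand 15 bases before it, and the Sp1 letters on the opposite strand. The Itgax window held 1 AP-1 match and the Itgb7 window held none of the 5 motifs. Over the 7 windows, PU.1 letters were in 4, Sp1 in 4, RUNX in 1, AP-1 in 1 and TATA in 0. Of 32851 windows of the same length, 23.3% held the PU.1 letters, 32.7% Sp1, 14.0% RUNX, 6.75% AP-1 and 12.4% TATA. A match describes letters and not a bound site.

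Libraries held 1477255 to 8520874 recovered reads, and 16282 to 20948 genes had a read. Of 13 eosinophil markers, 12 were called higher in tumor eosinophils than in tumor macrophages and 9 in naive eosinophils than in naive macrophages, where Ear2 was lower (−3.55 ± 0.93, limma adjusted p 0.00389). Of 14 macrophage markers, 13 were called lower in eosinophils in each tissue, and Adgre1 was higher in naive eosinophils (1.67 ± 0.34, limma adjusted p 0.000388). Levels that are compared across cell types are given as RPM, the reads of a gene per 1000000 reads of its library after all 20 libraries were scaled together. The eosinophil libraries also held neutrophil marker reads: the 14 neutrophil markers summed to 10800 ± 4532 RPM in tumor eosinophils and 12010 ± 5707 in naive eosinophils (SD). The naive sum came from fewer genes: 5 of the 14 averaged 10 RPM or more there, against 12 in tumor eosinophils, and Elane and Mpo were at 0. The 13 eosinophil markers summed to 1108 to 11500 RPM in tumor eosinophils, with a median of 1750, and to 2852 and 4374 in naive eosinophils. Replicate 4 gave the 11500, and 5 of the 7 tumor libraries lay below both naive ones. In every eosinophil library, tumor or naive, the neutrophil sum was larger than the eosinophil sum. The 2 sums were closest in tumor replicate 4, at 15250 and 11500 RPM. Tumor eosinophil replicates 2 and 3 stood apart, with 34.9 and 35.2% of reads from mitochondrial genes, and the tumor effects in eosinophils are also given without them. In bulk RNA, fewer cells of a type and less RNA per cell cannot be told apart.

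The first question was which of these integrin genes differ between tumor and naive colon in each cell type. Within a table, values are the authors' normalised reads (reads divided by a library size factor), tested with limma on log2(value + 1) and adjusted by Benjamini-Hochberg over all genes tested. A gene is called at an adjusted p under 0.05.

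In eosinophils the β2 genes Itgb2, Itgam and Itgax and the β7 gene stood lower in every tumor library than in either naive library. That absence of overlap, with tumor below, was seen for 9.77% of the 12984 genes tested. By limma only Itgb7 was called, as 1 of the 9 tested genes, where 4.63% of all genes were called, 2.21% lower and 2.42% higher. DESeq2 called Itgam (−1.24, adjusted p 0.0177) and Itgb2 (−1.21, 0.0247) as well, while edgeR called Itgb7 alone. Over all genes DESeq2 called 1384, 677 of them lower, and edgeR 605, 396 of them lower, against 601 by limma. The median log2 change of the 9 was −0.71, against 0.01 over all genes tested. Itgb2, the common β2 chain, had 6361, 12934 and 15144 normalised reads as the lowest, median and highest tumor eosinophil library, against 19195 and 33105 in the naive eosinophil libraries. Its log2 change was −1.24 ± 0.41 (SE) and its adjusted p by limma 0.112. Itgam, the αM chain, had 884, 1500 and 2158 normalised reads in the same order, against 2621 and 4611 in naive eosinophils. Its change of −1.26 ± 0.37 had an adjusted p of 0.0769 by limma. The highest tumor library was thus below the lower naive library for both genes, and the spread of the 2 naive libraries was wide. Itgax, the αX chain, had 1493 to 2283 normalised reads in tumor eosinophils with a median of 1972, against 2516 and 2526 in naive eosinophils. Its change of −0.41 ± 0.25 was the smallest of the β2 group (limma adjusted p 0.413). Itgal, the αL chain, had 232 to 599 in tumor eosinophils with a median of 354, against 474.5 and 959 in naive eosinophils. Here 1 tumor library reached above the lower naive one, and the change was −0.94 ± 0.39 (limma adjusted p 0.196).

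Estimating the spread from all 4 groups after joint scaling, an alternative chosen after seeing the data, called 4 genes lower in tumor eosinophils: Itgam (−1.29 ± 0.30, limma adjusted p 0.00435), Itgb2 (−1.27 ± 0.32, 0.00759), Itgb7 (−1.45 ± 0.38, 0.0103) and Itgal (−0.96 ± 0.30, 0.0267). That fit also called more of all genes: 1825 of 9325 tested, 1031 of them lower. The main fit called 601 of 12984, 287 of them lower. Without tumor eosinophil replicates 2 and 3, the 2 libraries with the lowest Itgb2, the changes in the eosinophil table were −0.94 for Itgb2 (limma adjusted p 0.135), −1.003 for Itgam (0.101), −0.715 for Itgal (0.32) and −0.35 for Itgax (0.512). Itgb7 kept its call (−1.16, 0.0335). Of the genes not called, Itgav had −0.91 (0.214), Itgb1 0.51 (0.501) and Itga5 0.87 (0.339), and Itga4 had 0.19 (0.851), a change of sign from its value with all libraries. Beside these values, 4 of 13 eosinophil markers were called lower in tumor eosinophils, among them Siglecf (−1.89 ± 0.42, limma adjusted p 0.0249). None was called higher, and the median log2 change of the 13 was −1.13. The list was split, with uncalled changes upward for Prg3 (4.17 ± 1.24, limma adjusted p 0.0774), Ear1 (3.61), Ear2 (3.36), Ear6 (2.30), Epx (2.21) and Prg2 (1.73). Of 14 neutrophil markers, 5 were called higher, among them S100a8 (4.42 ± 0.71, limma adjusted p 0.00548). Of 12 macrophage markers tested there, 4 were called higher, among them Apoe (1.93 ± 0.38, limma adjusted p 0.0147) and Lyz2 (1.995 ± 0.37, 0.0116), and Adgre1 was lower (−2.20 ± 0.40, 0.00963), with a median of 1.59. The 14 macrophage markers summed to 1029 to 1784 RPM in tumor eosinophils, against 997 and 1330 in naive eosinophils. The part of these marker changes in the integrin values was not tested.

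In macrophages limma called 0 of the 4 β2 genes, 1 had an unadjusted p under 0.05, and edgeR and DESeq2 called 0 and 0. Itgb2 had 3173, 3897 and 5907 normalised reads as the lowest, median and highest tumor macrophage library, against 2579, 3349, 3533, 3773 and 4610.3 in naive macrophages. Itgam had 1118, 1356 and 1572 in tumor macrophages, against 1087, 1172, 1195, 1492 and 1508 in naive macrophages. The groups overlapped for both, with log2 changes of 0.26 ± 0.18 and 0.06 ± 0.13 (limma adjusted p 0.372 and 0.789). Itgax had 3031 to 4337 in tumor macrophages, against 2968 to 3603 in naive macrophages, with a log2 change of 0.20 ± 0.12 (limma adjusted p 0.305). Itgal had 114 to 171 in tumor macrophages, against 91.05 to 119 in naive macrophages, and 5 of 6 tumor libraries were above every naive one. Its change of 0.38 ± 0.14 had an adjusted p of 0.0854 by limma.

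The difference between the tumor effects was then tested itself, in 1 limma model of all libraries after joint scaling. The effect in eosinophils minus that in macrophages was negative for Itgb2 (−1.61 ± 0.40, limma adjusted p 0.0164), Itgam (−1.43 ± 0.38, 0.0228) and Itgal (−1.41 ± 0.38, 0.0246). These 3 were called of the 9 genes tested in both cell types, where 7.95% of 9325 genes were called, 5.18% lower and 2.77% higher. For Itgax the difference was −0.71 ± 0.26 and was not called (limma adjusted p 0.0937). Over all genes tested the median difference was −0.14. Itgae was called higher, but it passed the filter on low values through the macrophage libraries, where it is high, and is not counted here. Leaving out tumor eosinophil replicates 2 and 3 kept the 3 calls, with −1.30 for Itgb2, −1.16 for Itgam and −1.17 for Itgal. The naive eosinophil group has 2 libraries, and without its replicate 2 limma called none of them: the difference was then −1.23 for Itgb2 (limma adjusted p 0.217), −1.04 for Itgam (0.269) and −0.92 for Itgal (0.328). Without a filter on low values all 3 calls were lost (adjusted p 0.0622 to 0.0649), and with a replicate block those of Itgb2 (−1.89, 0.0538) and Itgam (−1.59, 0.0644).

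**Figure D1:**
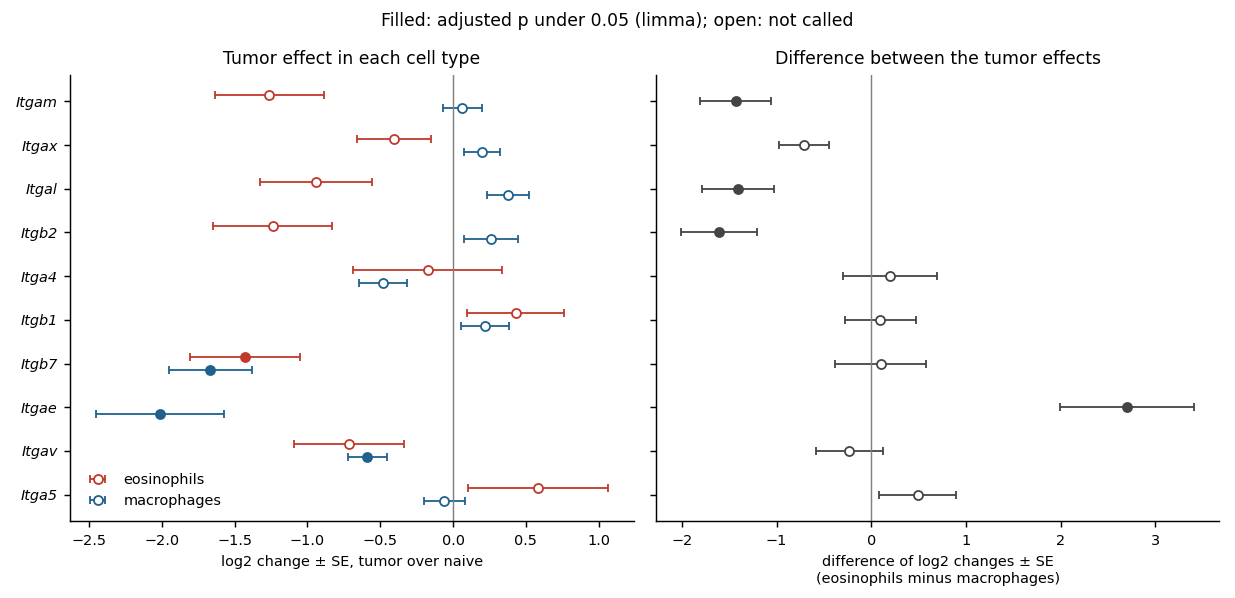
Tumor effect on each gene. Left, log2 change ± SE, tumor over naive, in eosinophils (red) and macrophages (blue), and right, eosinophil change minus macrophage change ± SE; filled points have a limma adjusted p under 0.05, so that Itgb7 is filled in both cell types and Itgae and Itgav in macrophages on the left, and Itgb2 (−1.61), Itgam, Itgal and the sparsely read Itgae on the right.

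Itgb7 was lower in tumors in both cell types. In eosinophils it had 507, 1179.7 and 1606 normalised reads as the lowest, median and highest tumor library, against 2576 and 3299 in the naive libraries. The change of −1.43 ± 0.38 had an adjusted p of 0.04998 by limma, at the edge of the threshold. This call was lost in 11 of 20 alternatives. Among them were those without naive eosinophil replicate 1 (−1.61, limma adjusted p 0.0806), without naive replicate 2 (−1.25, 0.405), and without tumor replicate 1, 3, 4, 6 or 7 (0.0569 to 0.0803). In macrophages Itgb7 had 69.0, 112 and 260.5 normalised reads as the lowest, median and highest tumor library, against 312, 317, 343, 350.4 and 561 in the naive libraries. All 6 tumor libraries were below all 5 naive ones, as for 5.47% of genes tested in macrophages with tumor below. The change of −1.67 ± 0.28 (limma adjusted p 0.000812) was called in all 21 alternatives. The effects in eosinophils and macrophages differed by 0.10 ± 0.48 (limma adjusted p 0.928).

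Itgae, the αE partner of β7, was lower in tumor macrophages. It had 8.11, 20.02 and 50.4 normalised reads as the lowest, median and highest tumor macrophage library, against 42.8, 81.95, 100.4, 105.3 and 105.5 in naive macrophages. Only tumor replicate 2 reached into the naive range. The change was −2.02 ± 0.44 (limma adjusted p 0.004995), called in all 21 alternatives. In eosinophils Itgae was too low to be tested, with 15, 5, 5, 1, 10, 1 and 9 reads in tumor replicates 1 to 7 and 0 and 1 reads in naive replicates 1 and 2. A count of 0 there allows up to 3 reads, or 0.494 RPM. The difference between the effects of 2.70 ± 0.71 (limma adjusted p 0.0232) rests on these few reads, lost its call with a replicate block (0.0514), without a filter (0.0595) and without naive eosinophil replicate 2 (0.0901), and ranged from 1.51 to 5.55 over the alternatives.

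Itga4, the α4 partner, was not called by limma in either cell type. In eosinophils it had 764.5, 1774 and 2649 normalised reads as the lowest, median and highest tumor library, against 1216 and 2288 in the naive libraries, and the change was −0.18 ± 0.51 (limma adjusted p 0.886). The tumor libraries lay on both sides of the naive ones, with replicates 1 to 3 at 764.5 to 985 and the others at 1774 to 2649. Replicates 1 to 3 also had the largest sums of 11 epithelial markers, 3881 to 4747 RPM against 1532 to 2177 in replicates 4 to 7, and the part of this was not tested. In macrophages Itga4 had 389.8, 528 and 655 normalised reads as the lowest, median and highest tumor library, against 571, 617, 736, 753 and 983 in the naive libraries. Its change of −0.48 ± 0.17 had an adjusted p of 0.0585 by limma, and 5 of 21 alternatives called it lower. These were edgeR (adjusted p 0.0447), DESeq2 (0.0283), limma-voom (0.046) and limma without naive replicate 5 (−0.565, 0.0391) or without tumor replicate 6 (−0.55, 0.0401).

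In macrophages 3 of the 10 genes were called, Itgb7, Itgae and Itgav, all lower, where 17.1% of all genes were called, 8.61% lower and 8.49% higher, and the median change of the 10 was 0.00 against 0.02 over all genes. Itgav, the αV chain, had 706, 832 and 1047 normalised reads as the lowest, median and highest tumor macrophage library, against 1135, 1167, 1312, 1411 and 1494 in naive macrophages. The groups did not overlap, and the change was −0.59 ± 0.13 (limma adjusted p 0.00687). It lost the call in the fit of all 4 groups (−0.51, limma adjusted p 0.153) and with a replicate block (−0.57, 0.052). In eosinophils Itgav had 262 to 647 normalised reads in tumor libraries, against 449.6 and 978 in naive ones, with a log2 change of −0.71 ± 0.38 (limma adjusted p 0.326).

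Itgb1 and Itga5 were not called between tumor and naive colon in either cell type, nor in the difference between the tumor effects. Itgb1 had 246 to 359 normalised reads in tumor eosinophils, against 141 and 362 in naive eosinophils, so the tumor libraries lay between the 2 naive ones. In macrophages it had 259 to 434 in tumor libraries and 244 to 391 in naive ones. Itga5 had 20.8 to 73.1 in tumor eosinophils, against 19.3 and 41.8 in naive eosinophils, and 163 to 213 in tumor macrophages, against 155 to 236 in naive macrophages. The log2 changes were 0.43 ± 0.33 and 0.22 ± 0.16 for Itgb1 and 0.58 ± 0.48 and −0.06 ± 0.14 for Itga5, in eosinophils and macrophages in that order.

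Several markers of dendritic cells, some of which carry αE with β7 in the gut, were lower along with Itgae and Itgb7 in the tumor macrophage libraries. Of 9 dendritic cell markers tested, 6 were called lower in tumor macrophages and none higher, with a median log2 change of −1.28. Over all genes tested there, 8.61% were called lower. The changes by limma were −4.40 ± 0.40 for Cd209a (adjusted p 3.81e-06), −2.08 ± 0.30 for Xcr1 (0.000235) and −1.66 ± 0.31 for Flt3 (0.00184). Among those not called, Ccr7 went the other way (0.88 ± 0.35, limma adjusted p 0.106) and Irf8 changed little (−0.28 ± 0.17, 0.289). Cd209a, a lectin of dendritic cells, fell to 0.870 ± 0.48 RPM in tumor macrophages, against 21.4 ± 9.9 in naive macrophages (SD). Cd209a, 1 of the 6 called, passed the filter on low values through the naive libraries, where it is high, so its call is a description. The summed level of the 9 markers was 390 to 655 RPM in tumor macrophages and 467 to 769 in naive macrophages, and none of the 9 was at 0 in either group. T and NK cell markers summed to 149 ± 54.5 in tumor macrophages and 484 ± 74.8 in naive macrophages, of which Cd4 made 110 ± 39.9 and 430 ± 67.1. B and plasma cell markers summed to 43130, 68890, 7173, 7500, 21320 and 22860 RPM in tumor macrophage replicates 1 to 6, where Itgb7 had 29.5, 60.2, 17.5, 16.3, 25.2 and 27.6 RPM and Itgae 5.67, 11.7, 1.89, 2.12, 3.24 and 9.87 RPM. The tumor library with the largest sum was thus the highest for both genes, and the 2 with the smallest sums were the lowest for both. The dendritic cell markers gave the same highest and lowest libraries, with 452.5, 655.3, 390.2, 396.6, 550.9 and 650.0 RPM in replicates 1 to 6. T and NK cell markers were also highest in replicate 2 (229.2 RPM) but lowest in replicate 5 (92.49). In naive macrophages the B and plasma cell markers summed to 16690 to 77180 RPM and their median log2 change was −0.72. The part of the dendritic, T and NK, and B and plasma cell markers in the Itgae and Itgb7 values was not tested.

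**Figure D2:**
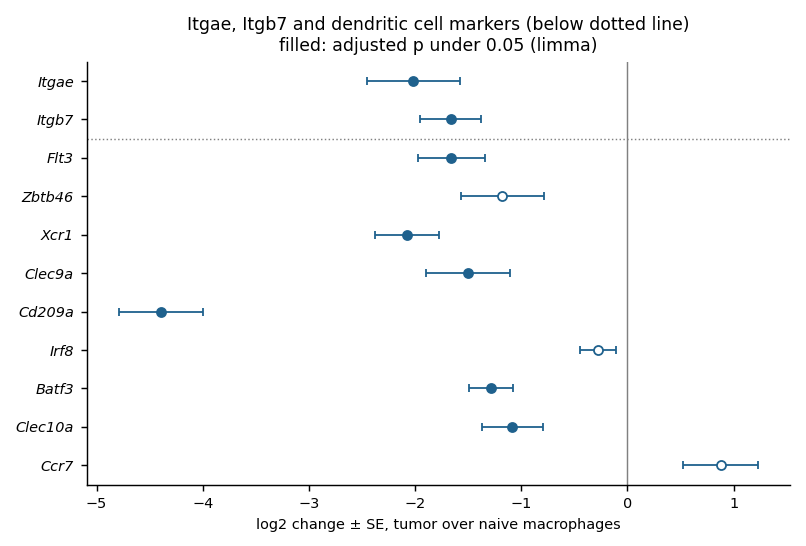
Changes of Itgae, Itgb7 and 9 dendritic cell markers between tumor and naive macrophages (log2 change ± SE). Filled points have a limma adjusted p under 0.05: Itgae (−2.02), Itgb7 (−1.67) and 6 of the 9 markers, all on the lower side.

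The second question was how the levels of these genes differ between the cell types. Because reads mark transcript ends, levels of different genes were compared in RPM without a length correction. Of the 10 genes, 8 were called between tumor eosinophils and tumor macrophages, 4 higher and 4 lower in eosinophils, where 54.8% of all genes were called, 24.8% higher and 29.9% lower. Between naive eosinophils and naive macrophages 7 were called, 5 higher and 2 lower, where 42.2% were called, 22.5% higher and 19.8% lower. With so large a share of all genes called, the counts are a description. Itgae, one of the lower genes in both counts, passed the filter on low values through the macrophage libraries, where it is high.

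Itgb2 had the highest mean of the 10 genes in all 4 groups, with libraries that overlapped those of Itgax in macrophages. It had 2998 ± 967 RPM in tumor eosinophils and 7011 ± 2205 in naive eosinophils, against 992 ± 220 in tumor macrophages and 777 ± 143 in naive macrophages (SD; n = 7, 2, 6 and 5). The order was naive eosinophils, tumor eosinophils, tumor macrophages, naive macrophages, and only the macrophage groups overlapped. Eosinophils were higher by 1.55 ± 0.22 (log2) in tumors and 3.16 ± 0.33 in naive colon (limma adjusted p 4.28e-06 and 8.59e-08). Itgal took the same order, with 98.6 ± 36.8 and 192 ± 80.2 in tumor and naive eosinophils, against 31.1 ± 5.1 and 22.5 ± 3.1 in tumor and naive macrophages. Tumor and naive eosinophils overlapped, as did the macrophage groups.

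Itgam was called between the cell types in naive colon and not in tumors. It had 407 ± 141 RPM in tumor eosinophils and 312 ± 42.3 in tumor macrophages, with overlapping libraries and a log2 difference of 0.32 ± 0.21 (limma adjusted p 0.201). In naive colon it had 969 ± 318 in eosinophils and 284 ± 56.4 in macrophages, a difference of 1.75 ± 0.31 (9.45e-05). The tumor libraries 2 and 3 bear on the first value, which was 0.63 without them (limma adjusted p 0.00658) and 0.48 without replicate 2 alone (0.0424). Itgax ran the other way, with 514 ± 96.5 in tumor eosinophils and 878 ± 97.6 in tumor macrophages, a log2 difference of −0.79 ± 0.14 (9.95e-05). In naive colon it had 684 ± 42.9 in eosinophils and 723 ± 88.0 in macrophages, with overlapping libraries and a difference of −0.07 ± 0.22 (limma adjusted p 0.823).

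Itgb7 had the largest log2 differences in favour of eosinophils among the 10 genes. It had 304 ± 96.0 RPM in tumor eosinophils and 793 ± 86.5 in naive eosinophils, against 29.4 ± 16.02 in tumor macrophages and 82.3 ± 22.2 in naive macrophages. The order was naive eosinophils, tumor eosinophils, naive macrophages, tumor macrophages, with no overlap between neighbours. The log2 difference was 3.38 ± 0.27 in tumors and 3.28 ± 0.40 in naive colon (limma adjusted p 5.12e-10 and 7.13e-07). Without naive eosinophil replicate 1, the naive differences of Itgb2 (3.55) and Itgal (3.49) exceeded that of Itgb7 (3.47). Itga4 was also higher in eosinophils, at 440 ± 211 in tumor and 469 ± 175 in naive eosinophils, against 121 ± 24.2 in tumor and 161 ± 41.4 in naive macrophages. Every eosinophil library of a tissue was above every macrophage library of that tissue for Itga4, although tumor eosinophils reached down into the range of naive macrophages. The log2 difference was 1.72 ± 0.27 in tumors and 1.52 ± 0.41 in naive colon (limma adjusted p 1.72e-05 and 0.00483), and without naive eosinophil replicate 2 the naive difference was 1.13 (0.11).

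Itgae was the one β7 partner with more reads in macrophages. It had 1.45 ± 1.21 RPM in tumor eosinophils and 5.74 ± 4.15 in tumor macrophages. In naive macrophages it had 19.2 ± 6.3, while the naive eosinophil libraries held 1 read in all. With the reads of each group pooled and set against its summed scaled library sizes, tumor eosinophils stood at 25.6% of tumor macrophages (95% counting interval 18.2 to 35.3%), and naive eosinophils at 0.5% of naive macrophages (0.0126 to 2.8%).

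Of the remaining chains, Itga5 was lower in eosinophils, at 12.2 ± 4.1 in tumor and 8.43 ± 4.85 in naive eosinophils, against 43.4 ± 5.6 in tumor and 43.1 ± 7.9 in naive macrophages. No eosinophil library reached a macrophage library, and the log2 differences were −1.82 ± 0.23 in tumors and −2.31 ± 0.34 in naive colon (limma adjusted p 6.08e-07 and 8.59e-06). Itgav had 113 ± 37.7 in tumor eosinophils and 190.4 ± 88.8 in naive eosinophils, against 201 ± 27.6 in tumor macrophages and 284 ± 24.1 in naive macrophages. Its difference was called in tumors (−0.88 ± 0.20, limma adjusted p 0.000667) and not in naive colon (−0.65 ± 0.30, 0.0805), where it became −1.14 without naive eosinophil replicate 2 (0.0154). Itgb1 had 82.1 ± 12.6 in tumor and 69.7 ± 46.8 in naive eosinophils, against 88.8 ± 18.2 in tumor and 71.8 ± 15.5 in naive macrophages, and all neighbouring groups overlapped. The log2 differences of Itgb1 were −0.10 ± 0.21 in tumors and −0.19 ± 0.31 in naive colon (limma adjusted p 0.706 and 0.653), and −0.86 in naive colon without naive eosinophil replicate 1 (0.038).

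**Figure D3:**
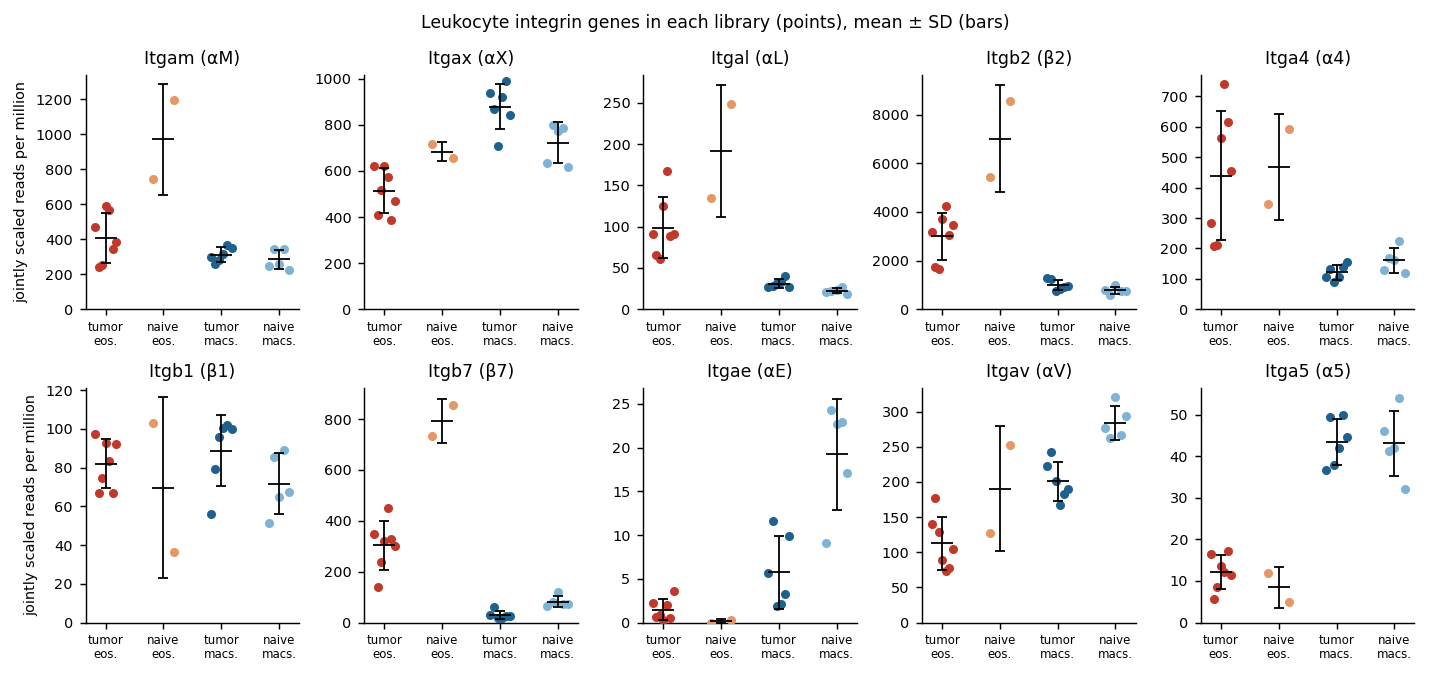
Level of each gene in every library (points; RPM, a separate linear axis per gene) with the group mean ± SD (bars). Itgb7 averages 304 in tumor and 793 in naive eosinophils, against 29.4 in tumor and 82.3 in naive macrophages, while the Itgb1 groups overlap.

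**Figure D4:**
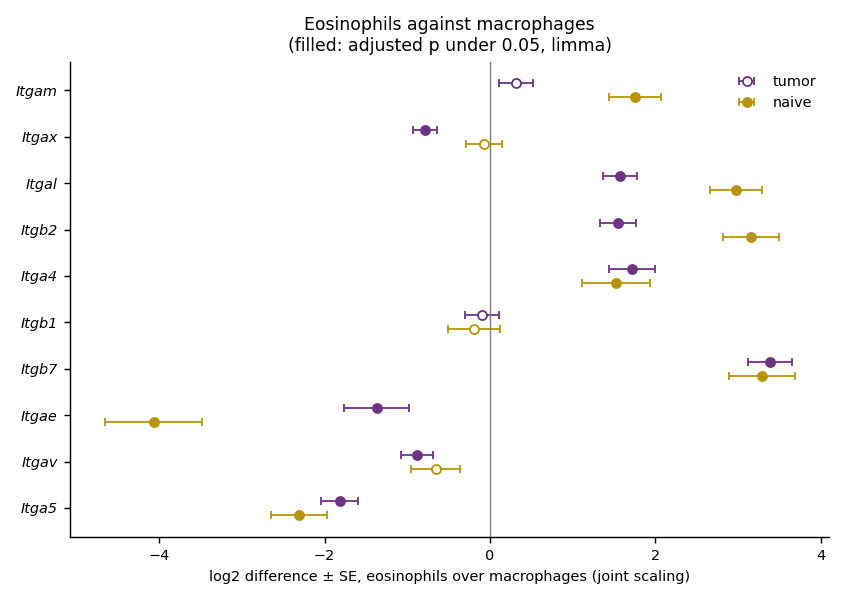
Eosinophils over macrophages (log2 difference ± SE, joint scaling) for each gene, in tumors (purple) and naive colon (gold); filled points have a limma adjusted p under 0.05. Itgb7 lies at 3.38 in tumors and 3.28 in naive colon, and Itgam at 0.32 in tumors and 1.75 in naive colon.

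The make-up of each pair was then described within libraries, where scaling cancels. Itgam reads were 13.7 ± 1.8% of Itgb2 reads in tumor eosinophils and 13.8 ± 0.2% in naive eosinophils, although both genes stood lower in every tumor library. In macrophages the share was 32.9 ± 8.6% in tumors and 38.1 ± 13.1% in naive colon. Itgax reads came to 18.7 ± 6.6% of Itgb2 reads in tumor eosinophils and 10.4 ± 3.9% in naive eosinophils, against 91.2 ± 17.0% in tumor and 95.8 ± 23.5% in naive macrophages. Among reads of the 3 β2 partners, Itgax made up 51.3 ± 6.5% in tumor eosinophils and 38.0 ± 9.6% in naive eosinophils. It made up 71.9 ± 2.5% in tumor and 70.4 ± 2.3% in naive macrophages. Itgal held 9.55 ± 1.8% and 10.2 ± 2.4% in tumor and naive eosinophils, against 2.56 ± 0.4% and 2.198 ± 0.2% in tumor and naive macrophages.

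**Figure D5:**
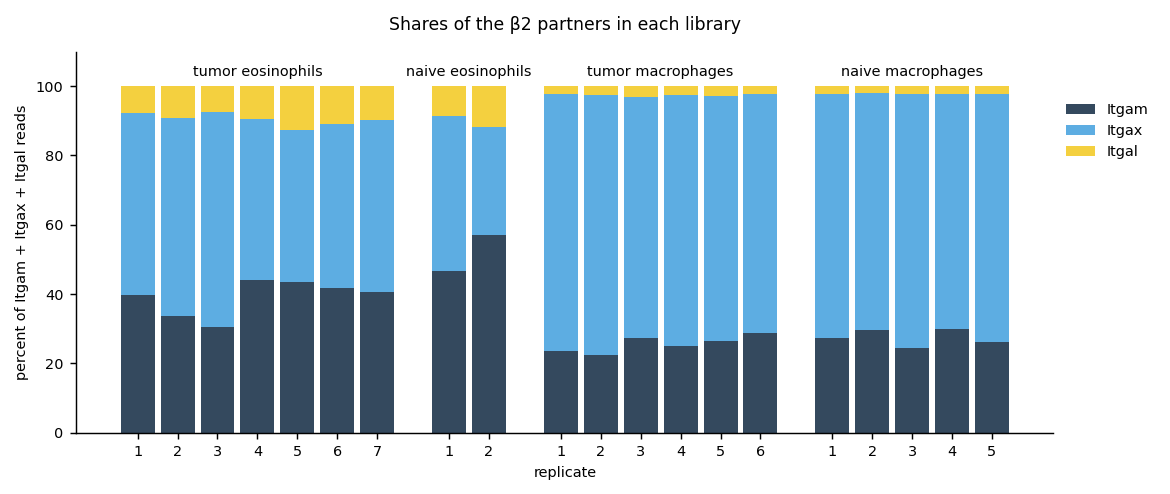
Shares of Itgam, Itgax and Itgal in the summed reads of these 3 genes, 1 bar per library, as percent. Itgax averages 51.3% in tumor eosinophils, 38.0% in naive eosinophils, 71.9% in tumor macrophages and 70.4% in naive macrophages.

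Of the 3 β genes, Itgb2 supplied 83.2 to 89.0% of the reads as a mean in each of the 4 groups. Itgb7 supplied 9.07 ± 1.67% in tumor eosinophils, 10.3 ± 1.8% in naive eosinophils, 2.55 ± 0.94% in tumor macrophages and 8.81 ± 1.53% in naive macrophages. Itga4 reads were 143 ± 41.6% of Itgb7 reads in tumor eosinophils and 58.3 ± 15.7% in naive eosinophils, with tumor libraries between 82.0 and 187% and naive libraries at 47.2 and 69.4%. In macrophages they were 475 ± 157% in tumors and 204 ± 66.4% in naive colon. Itgae reads were 18.5 ± 9.2% of Itgb7 reads in tumor macrophages and 23.6 ± 7.5% in naive macrophages. Among α4, αV and α5 reads, Itga4 held 74.2 ± 14.4% in tumor and 70.4 ± 1.1% in naive eosinophils, against 33.0 ± 4.8% in tumor and 32.7 ± 5.9% in naive macrophages.

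Across the 7 tumor eosinophil libraries Pearson r was 0.93 between Itgb2 and Itgam, 0.92 between Itgal and Itgam and 0.91 between Itgb2 and Itgal. The fourth β2 gene, Itgax, had lower values, at 0.45 with Itgb2, 0.525 with Itgal and 0.718 with Itgam, while Itga4 and Itgb7 had 0.878 and 0.856 with Itgb2. Itgav ran against Itga4 (r = −0.95). These libraries share the mitochondrial and epithelial differences given above. Over all 20 libraries, where the cell type sets most of the pattern, the gene most like Itgb2 was Tyrobp, the adaptor DAP12 (r = 0.98), that most like Itgal was Cxcl2, a neutrophil-attracting chemokine (0.98), and that most like Itgb7 was Rasgrp4, an exchange factor for Ras (0.98). The closest to Itgam was Smim3 (0.96), to Itga5 Unc93b1 (0.97), to Itga4 H2-D1 (0.96), to Itgae Ifi27l2a (0.93) and to Itgav Cmtm3 (0.92). For Itgax and Itgb1 the highest values were lower, at 0.89 with Rap1a and 0.84 with Tkt. Likeness was computed on log2 levels over 7113 other genes (7114 for Itgae).

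Other integrin subunits were read from a list of 17. The platelet chains Itga2b and Itgb3, which pair with each other, were higher in eosinophils than in macrophages. Itgb3 had 221 ± 87.1 RPM in tumor eosinophils and 525.5 ± 15.0 in naive eosinophils, against 13.98 ± 9.2 in tumor and 12.5 ± 4.6 in naive macrophages. Itga2b had 74.1 ± 28.4 in tumor and 116 ± 106 in naive eosinophils, against 7.35 ± 4.02 in tumor and 5.10 ± 1.90 in naive macrophages. Both belong to a list of 6 platelet markers. Of the other 4, Gp1ba and Gp9 were at 0 in naive eosinophils, and Gp1ba also in tumor eosinophils. Pf4 had 7.75 ± 6.53 RPM in tumor and 4.95 ± 1.40 in naive eosinophils, and Ppbp had 173 ± 119 in tumor and 13.9 ± 10.4 in naive eosinophils (log2 change 3.42 ± 0.84, limma adjusted p 0.0377). Their part in the Itga2b and Itgb3 values was not tested. Itgb5, an αV partner, ran the other way, with 10.2 ± 2.6 in tumor and 6.92 ± 5.36 in naive eosinophils, against 240.2 ± 30.6 in tumor and 189 ± 37.7 in naive macrophages. Itga9, which pairs with β1, had 1.84 ± 0.73 in tumor and 2.04 ± 2.004 in naive eosinophils, against 46.0 ± 6.3 in tumor and 53.8 ± 8.2 in naive macrophages. By limma the adjusted p of the tumor comparison was 3.23e-09 for Itgb3, 5.96e-07 for Itga2b, 1.73e-13 for Itgb5 and 8.86e-13 for Itga9. Itga9 passed the filter on low values through the macrophage libraries, where it is high, so its call is a description.

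Between tumor and naive macrophages, 3 of 10 tested subunits of that list rose and none fell, where 8.49% of all genes were called higher. They were Itga6 (1.59 ± 0.26, limma adjusted p 0.000605) and Itgb4 (1.65 ± 0.35, 0.00441), which together form the laminin receptor of epithelia, and Itga3 (1.20 ± 0.26, 0.00486), also a laminin receptor chain. The epithelial cadherin Cdh1, the ligand of αE with β7, rose with them (1.65 ± 0.33, limma adjusted p 0.00296), as did Fermt1, the epithelial kindlin (2.08 ± 0.45, 0.00501). In the same comparison 4 of 10 tested epithelial markers were called higher, Cdh1 itself among them, and 1 lower. The epithelial markers summed to 714 to 1340 RPM in tumor macrophages and 325 to 2303 in naive macrophages. Their part in these values was not tested. In eosinophils, where 2.42% of all genes were called higher, 1 of 12 tested subunits rose, Itgb8, an αV partner (3.08 ± 0.72, limma adjusted p 0.0307), at 7.02 ± 4.03 RPM in tumor eosinophils, against 0.477 ± 0.209 in naive eosinophils. Itgb8 passed the filter on low values through the tumor libraries, where it is high, so this call is a description.

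Several ligands of these receptors rose in tumor macrophages. Of 18 listed, 11 were tested and 5 rose by limma, or 4 by edgeR and by DESeq2, where 8.49% of all genes were called higher, with a median log2 change of 0.38 against 0.02 over all genes. Spp1, osteopontin, which binds αV and α4 integrins, rose by 4.004 ± 0.23 (limma adjusted p 5.77e-08) to 108 ± 33.6 RPM in tumor macrophages, against 6.17 ± 2.01 in naive macrophages. Thbs1, thrombospondin, rose by 2.61 ± 0.27 (9.88e-06) and Vcam1, the ligand of α4 with β1, by 1.01 ± 0.22 (0.00428). Fn1, fibronectin, was called at 0.82 ± 0.25 (0.0373) and lost the call in 12 of 21 alternatives. In eosinophils Spp1 (3.19 ± 0.70, limma adjusted p 0.0242) and Vcam1 (2.03 ± 0.49, 0.0344) rose among 16 tested ligands, where 2.42% of all genes were called higher, both at low levels. Spp1 reached 5.52 ± 2.70 RPM in tumor eosinophils, against 0.469 ± 0.663 in naive eosinophils, and Vcam1 7.16 ± 1.72 against 1.71 ± 1.08. Both passed the filter on low values through the tumor libraries, where they are high, so these calls are a description. Icam1, the main ligand of LFA-1, was not called in either cell type (1.56 ± 0.51 in eosinophils, limma adjusted p 0.106; −0.34 ± 0.15 in macrophages, 0.144), and the effects differed by 1.79 ± 0.49 (0.0269), or with an adjusted p of 0.157 without naive eosinophil replicate 2.

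Activation and adaptor genes serve to switch integrins on. Of 20 tested in eosinophils, limma called 0, 6 had an unadjusted p under 0.05, edgeR called 2 and DESeq2 4, and the median log2 change was −0.37. Of 19 tested in macrophages, 2 rose and 1 fell, a share near the 17.1% called over all genes. Talin (Tln1), which binds β tails, and kindlin-3 (Fermt3), its leukocyte partner, were not called in either cell type. The log2 change of Tln1 was 0.79 ± 0.68 in eosinophils and −0.20 ± 0.12 in macrophages (limma adjusted p 0.562 and 0.263), and that of Fermt3 −0.28 ± 0.45 and 0.07 ± 0.12 (0.777 and 0.719). Rasgrp4 fell by 1.82 ± 0.26 on the log2 scale in macrophages (limma adjusted p 0.000172), and Cyth1, a cytohesin that binds the β2 tail, rose by 0.67 ± 0.17 (0.0153), a call lost in 1 of 21 alternatives.

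Among 22 genes of outside-in signalling and cytoskeletal links, all tested, 1 fell in eosinophils, a share near the 4.63% called over all genes, and 4 rose and 2 fell in macrophages, where 17.1% were called. Vcl, vinculin, fell by 1.71 ± 0.41 on the log2 scale in eosinophils (limma adjusted p 0.0319). In macrophages the kinase Src rose by 1.21 ± 0.14 (limma adjusted p 3.69e-05) and Fgr, a Src-family kinase of myeloid cells, by 0.61 ± 0.15 (0.00927), while the parvin Parvb fell by 0.76 ± 0.16 (0.00397). The Fgr and Parvb calls were lost in 2 and 1 of 21 alternatives.

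Other leukocyte adhesion genes included the hyaluronan receptor Cd44, which fell in both cell types. It fell by 1.82 ± 0.42 on the log2 scale in eosinophils and by 0.96 ± 0.20 in macrophages (limma adjusted p 0.0299 and 0.00313). Pecam1, an adhesion molecule of vessel walls and leukocytes, fell by 1.31 ± 0.30 in eosinophils (0.0299), and the 2 were the only calls among 15 tested there, where 4.63% of all genes were called. In macrophages 2 of 14 tested rose and 3 fell, where 17.1% of all genes were called. The tetraspanin Cd81 fell there by 1.15 ± 0.11 and Cd63, a tetraspanin of granules and endosomes, rose by 0.97 ± 0.15 (limma adjusted p 4.66e-06 and 0.00039). Selplg and Sema4d were called as well, and each lost the call in 2 of 21 alternatives. All 6 of the eosinophil calls named from the lists depended on the naive eosinophil pair. Without naive eosinophil replicate 2, Vcl, Vcam1 and Cd44 had a limma adjusted p of 0.39, 0.383 and 0.439, and without replicate 1 Spp1 had 0.128. Itgb8 and Pecam1 lost the call without either library, with 0.11 and 0.0892 without replicate 1 and 0.182 and 0.186 without replicate 2. Each of the 6 calls was lost in 4 to 10 alternatives in all.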

How the data were processed

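RNA was measured by CEL-Seq, and per the labels each sample went through 3 technical replicates that differed in primer pool. How these were merged is not stated there. Build GRCm38.p5 and the tools HTSeq 0.6.1, TopHat2 2.1.0, Bowtie2 2.2.6, DESeq2 1.14.1, Trim Galore and FastQC 0.11.5 are named in the submitters' processing notes. Those sources do not state strand use, settings or whether molecular barcodes were collapsed.

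The authors deposited 1 table per cell type of normalised signal, that is gene read counts divided by a size factor per library. All 374526 non-zero values (100.0% in every library) were whole multiples of 1 read within 0.1 read, so reads per library were recovered. A further 27 entries carry bare numbers for names and at most 0.132% of a library's reads. Each table was scaled alone, so cell types were compared only after joint TMM scaling of recovered reads (edgeR 4.0.16).

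Because the tables held a normalised signal, limma 3.58.1 in R 4.3.3 (eBayes with trend, two-sided) was run on log2(value + 1). Genes needed 10 in at least 2 eosinophil or 5 macrophage libraries, or in 2 of all libraries after joint scaling. Fold changes on this scale understate those of low genes and depend on the pseudocount where reads are few. As an alternative, quasi-likelihood tests of edgeR on those reads called 605 genes for the eosinophil effect, 1949 for the macrophage effect and 666 for their difference. DESeq2 1.42.0 was a further alternative. The fits were tested on simulated data. All counting intervals and floors cover counting error only.

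The 10 genes and the lists of related genes and cell type markers were chosen with earlier results of these data known. From each list, up to 4 called genes per direction with the smallest p could be named, Tln1, Fermt3 and Icam1 were named for their roles, and likeness was the highest Pearson r over 20 libraries. No 2 libraries of a group agreed within sampling noise (lowest chi-square per degree of freedom 7.37). Replicate numbers did not pair tumor with naive macrophage libraries and left pairing of the eosinophil libraries unsettled, and the main fits were unpaired.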

Additional observations from a re-analysis of the deposited data

Results flagged for a closer look

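In 2 of 30 sets of a gene within a group, 1 library lay far from the others. The cut-offs used are meant to flag about 1 such set in 20 by chance, a rate that was not measured in these data. Itgb7 had 60.2 RPM (reads per 1000000 after joint scaling) in tumor macrophage replicate 2, against 16.3 to 29.5 in the other tumor macrophage libraries. It had 120.7 in naive macrophage replicate 3, against 65.9 to 80.8 in the other naive macrophage libraries. Tumor replicate 2 remained below every naive library. Both libraries also had the largest B and plasma cell marker sums of their groups, 68890 RPM against 7173 to 43130 in the other tumor macrophage libraries and 77180 against 16690 to 64150 in the other naive macrophage libraries. The same held for the dendritic cell markers, at 655.3 RPM in the tumor and 769.4 in the naive library. It held as well for the T and NK cell markers, at 229.2 and 608.3 RPM. The part of these sums was not tested.

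For 4 genes the tumor effect differed between the cell types by the limma test of the difference itself (eosinophils minus macrophages). The difference was −1.43 for Itgam, −1.41 for Itgal, −1.61 for Itgb2 and 2.70 for Itgae. For Itgae the eosinophil effect rests on 46 reads in 7 tumor libraries and 1 read in 2 naive libraries, and the gene passed the filter on low values through the macrophage libraries.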

How the results depend on the processing

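The naive eosinophil pair limits every eosinophil result. The tumor effect in eosinophils called 601 genes, and 1384 with DESeq2, 227 with limma-voom, 1825 in the fit of all 4 groups and 90 to 940 with 1 replicate left out, with 90 when naive replicate 2 was. Of the 10 integrin genes it called 1, and 0 with a pseudocount of 0.5, no filter, limma-voom or TMM within the table, 3 with DESeq2, 4 in the fit of all 4 groups and 0 to 1 with a replicate left out. The tumor effect in macrophages called 1972 genes, 927 in the fit of all 4 groups and 1544 to 1979 with a replicate left out. It called 3 integrin genes, 2 in the fit of all 4 groups and with a replicate block, 4 with edgeR, DESeq2 or limma-voom, and 3 to 4 with a replicate left out. The difference between the effects called 741 genes, 471 without a filter and 154 (without naive eosinophil replicate 2) to 1795 (without replicate 1) with a replicate left out. Its 4 integrin genes became 0 without a filter and 0 to 4 with a replicate left out. Between eosinophils and macrophages, 4691 to 5297 genes were called in tumors and 3009 to 4166 in naive colon, with 8 to 9 and 7 to 8 integrin genes. These counts include Itgae, which passed the filter through the macrophage libraries.

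Replicate numbers did not pair tumor with naive macrophage libraries (r of deviations −0.39 to 0.10). In both eosinophil pairs r was 0.18 and was highest for the library's own number. Between tumor eosinophils and tumor macrophages r was −0.11 to 0.24, and the own number was highest for replicates 1, 3 and 6. Pairing is thus not settled for these comparisons, and the main fits were unpaired. With a replicate block, the eosinophil effect called 1130 genes and the macrophage effect 1233, while the test of the difference called 490, of which 1 integrin gene, Itgal.

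None of the 10 genes reversed a call. The Spp1 difference (−1.80) reversed to 0.001 with edgeR and 0.13 with DESeq2, and Flna in naive eosinophils over naive macrophages to −0.011 without naive eosinophil replicate 1 (2.19 without replicate 2). The cause was not tested. Median-of-ratios scaling, edgeR and DESeq2 moved the median difference of all genes by 0.13 to 0.21. Of 280 alternatives for group levels, 1 moved by more than the SD, and of 340 for subunit shares 0. Depth limits Itgae in eosinophils.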
